A study of Homo sapiens with 4 samples.

Results

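The ID genes and the BMP signaling genes around them were examined in endometrial cancer cells in which Efp had been silenced. The 10 genes were ID1, ID2, ID3, ID4, SMAD6, SMAD7, BMP4, BMP7, BMPR2 and BAMBI, out of 18417 genes measured, and each was read by 1 probe set. They were picked on the data themselves: the log2 signals of ID2 and ID3 were over 2-fold higher in siEfp-treated Ishikawa cells, and the other members are their relatives and the pathway that controls them. The Ishikawa differences given here are therefore a description, with no test.

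The study introduced siRNA against Efp (siEfp) or a control siRNA (siControl) into 2 human endometrial adenocarcinoma cell lines. Efp is the estrogen-responsive RING finger ubiquitin ligase that the gene TRIM25 encodes. Gene expression was read on 4 arrays, 1 each for Ishikawa siEfp, Ishikawa siControl, HEC-1A siEfp and HEC-1A siControl, from 150 ng of total RNA. Ishikawa cells are ERα-positive and well differentiated, and HEC-1A cells are ERα-negative and moderately differentiated. The Ishikawa cells had been given the duplex siEfp #A or siControl and were collected after 48 h. For HEC-1A, the sources used here give neither the duplex nor the time. None of them says which cultures the arrays came from, and each condition has 1 array, so that differences between siEfp and siControl carry no replicate error. Each array read RNA of a whole culture, in which a change in the share of cells and a change in RNA per cell cannot be told apart.

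Bone morphogenetic proteins (BMPs) are secreted ligands that bind paired type I and type II receptors. The receptors phosphorylate SMAD1, SMAD5 and SMAD9, which join SMAD4 and enter the nucleus, and the ID genes are among their best known targets. ID proteins have a helix-loop-helix domain but no DNA-binding region, and they hold E proteins such as TCF3 away from DNA, which keeps cells from differentiating. SMAD6 and SMAD7 are inhibitory SMADs that BMP and TGF-β signals induce and that then dampen the pathway, and BAMBI is a decoy receptor without a kinase domain. In the endometrium, BMP signaling is known for its part in decidualization of the stroma.

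As a description, the 250 bases before the start of each ID gene are shown, from RefSeq on GRCh38.p14. Capitals mark every match, on either strand, to 4 motifs. GGCGCC is a GC-rich element known from BMP-responsive promoters, CAGAC, which reads GTCTG on the other strand, is the core to which SMAD proteins bind. The CCAAT box reads ATTGG on the other strand, and the TATA box TATAAA reads TTTATA.
ID1, chr20:31605039-31605288, plus strand: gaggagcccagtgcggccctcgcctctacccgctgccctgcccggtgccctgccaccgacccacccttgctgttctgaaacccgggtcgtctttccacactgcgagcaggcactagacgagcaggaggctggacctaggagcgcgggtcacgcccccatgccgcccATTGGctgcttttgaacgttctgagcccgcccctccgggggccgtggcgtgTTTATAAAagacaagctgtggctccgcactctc
ID2, chr2:8681806-8682055, plus strand: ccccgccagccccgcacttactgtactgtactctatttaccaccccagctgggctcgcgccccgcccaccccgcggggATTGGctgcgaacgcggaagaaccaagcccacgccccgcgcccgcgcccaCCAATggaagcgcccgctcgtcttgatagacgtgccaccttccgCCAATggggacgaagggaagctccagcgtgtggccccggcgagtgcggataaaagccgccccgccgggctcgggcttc
ID3, chr1:23559502-23559751, minus strand: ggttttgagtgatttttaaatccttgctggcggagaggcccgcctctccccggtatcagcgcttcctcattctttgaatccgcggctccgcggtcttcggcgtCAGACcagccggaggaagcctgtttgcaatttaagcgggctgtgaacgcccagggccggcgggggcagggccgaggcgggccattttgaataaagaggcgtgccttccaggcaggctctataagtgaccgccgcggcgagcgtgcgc
ID4, chr6:19837120-19837369, plus strand: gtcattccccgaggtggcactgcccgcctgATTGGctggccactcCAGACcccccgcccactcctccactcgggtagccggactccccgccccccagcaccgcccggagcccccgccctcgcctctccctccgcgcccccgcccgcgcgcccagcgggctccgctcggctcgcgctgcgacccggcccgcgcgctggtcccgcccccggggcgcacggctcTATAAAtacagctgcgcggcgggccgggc

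GGCGCC was in 0 of these 4 windows, against 16.4% of 35116 promoter windows of the same length. Bases further upstream were not searched, so it is not shown that these genes lack the element. CAGAC was found once in ID3, at position -147 from the start, and once in ID4, at -205, and 38.0% of all windows hold it. The CCAAT box was found 3 times in ID2, at -172, -122 and -78, and once each in ID1, at -84, and ID4, at -220, against 32.0% of all windows. TATAAA lay at -29 in ID4, and in ID1 at -31, where it overlaps TTTATA at -33, and 10.7% of all windows hold it. The ID3 window, whose gene had the highest Ishikawa difference of the 4, shared the CAGAC core with ID4 and no motif with ID2. The windows were 66.0% GC in ID1, 69.2% in ID2, 62.0% in ID3 and 78.8% in ID4. These matches describe letters only, and binding was not measured.

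TRIM25 was lower with siEfp in both lines, which is the direction of the labels. The log2 signal of TRIM25 (probe set 8016847) was 7.96 in Ishikawa siEfp and 9.42 in Ishikawa siControl, 2.75-fold lower, and of 7.93 in HEC-1A siEfp and 9.50 in HEC-1A siControl, 2.97-fold lower. Over all genes the median difference was 0.01 in both lines, and the middle 95% of genes lay between -0.70 and 0.51 in Ishikawa and between -0.55 and 0.49 in HEC-1A. The 2 arrays of a line correlated at 0.992 in Ishikawa and 0.993 in HEC-1A, and arrays of different lines at 0.956 to 0.958, across probe sets. The 5 epithelial markers (EPCAM, CDH1, KRT8, KRT18, KRT19) had signals of 9.62 to 12.3 in Ishikawa siEfp. In HEC-1A the E-cadherin gene CDH1 had only 3.74 with siEfp and 4.07 with siControl. EPCAM had 7.05 and 7.26 there, and KRT19 8.60 and 8.81, while KRT8 and KRT18 had 10.85 or more on both arrays. The 5 stromal markers ranged from 2.93 to 7.29 in Ishikawa siEfp, 2.86 to 7.40 in Ishikawa siControl, 2.82 to 6.37 in HEC-1A siEfp and 2.79 to 6.50 in HEC-1A siControl, with the collagen genes COL1A1 and COL3A1 at the upper end and DCN and LUM at the lower. The 4 endothelial markers had at most 5.21. Of the 4 immune markers, PTPRC had at most 3.17, while CD68 had 5.58 in Ishikawa siEfp, 5.98 in Ishikawa siControl, 7.26 in HEC-1A siEfp and 6.97 in HEC-1A siControl. The part of other cells in the results was not tested.

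ID2 and ID3 had the largest siEfp differences of the 10 genes in Ishikawa cells. The log2 signal of ID3 (probe set 7913655) was 7.03 in Ishikawa siEfp and 5.66 in Ishikawa siControl. The difference of 1.37, or 2.59-fold, was the third highest of all 18417 genes. ID2 (8040103), a regulator of differentiation in many epithelia, had 8.55 in Ishikawa siEfp and 7.52 in Ishikawa siControl. Its difference of 1.03, or 2.04-fold, ranked 23 from the highest. These 2 genes set the rule, with ID2 just inside the 2-fold limit. The first gene outside it was ID4 (8117120), with 7.67 in Ishikawa siEfp and 6.94 in Ishikawa siControl, a difference of 0.73 or 1.66-fold. ID1 (8061564), a common readout of BMP signaling, ran the other way, with 10.71 in Ishikawa siEfp and 11.06 in Ishikawa siControl. Its difference of -0.35 was close to the SD of 0.28 among the differences of the 500 genes nearest in signal. For ID2, ID3 and ID4 the corresponding SDs were 0.35, 0.33 and 0.34. The family did not share one direction: 3 genes were higher and 1 lower, with a median difference of 0.88. The probes of ID2 could also bind transcripts of its near-copy ID2B, which is a limit on the ID2 values.

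**Figure D1:**
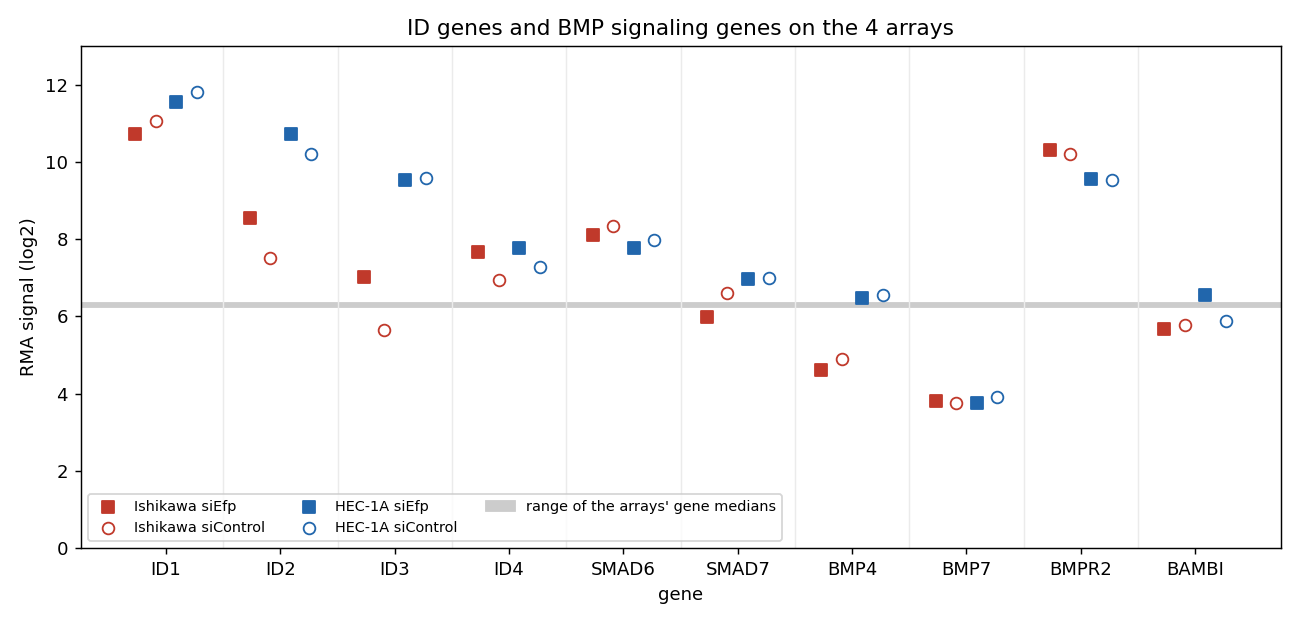
RMA signal (log2, vertical axis) of the 10 genes on each of the 4 arrays. Filled squares are siEfp arrays and open circles siControl arrays, red for Ishikawa and blue for HEC-1A, with 1 array per point and no error bar. The grey band is the range of the 4 arrays' medians over genes, 6.25 to 6.34. ID3 stands at 7.03 in Ishikawa siEfp and 5.66 in Ishikawa siControl, below both HEC-1A arrays, at 9.52 and 9.58.

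In HEC-1A cells, whose arrays the rule did not use, the ID genes divided differently. ID2 had 10.73 in HEC-1A siEfp and 10.21 in HEC-1A siControl, a difference of 0.52 or 1.43-fold, which ranked 379 from the highest. ID4 had 7.78 in HEC-1A siEfp and 7.28 in HEC-1A siControl, a difference of 0.50 or 1.41-fold. Both had the sign seen in Ishikawa, at a smaller size, and both differences were just above the upper end of the middle 95% of all genes. ID3 had 9.52 in HEC-1A siEfp and 9.58 in HEC-1A siControl, a difference of -0.06, so that the gene with the highest Ishikawa difference of the 10 was nearly level in HEC-1A. ID1 had 11.55 in HEC-1A siEfp and 11.80 in HEC-1A siControl, a difference of -0.24, on the same side as in Ishikawa. The median of the family in HEC-1A was 0.22.

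Both inhibitory SMADs had lower signals with siEfp in Ishikawa. SMAD7 (8023220) had 6.00 in Ishikawa siEfp and 6.59 in Ishikawa siControl, a difference of -0.60 or 1.51-fold lower, and ranked 662 from the lowest. In HEC-1A it had 6.97 with siEfp and 6.99 with siControl, a difference of -0.02. SMAD6 (7984353), the more BMP-selective of the pair, had 8.11 in Ishikawa siEfp and 8.33 in Ishikawa siControl, and 7.77 in HEC-1A siEfp and 7.97 in HEC-1A siControl. Its differences of -0.22 and -0.20 were smaller than the SD over all genes, which was 0.30 in Ishikawa and 0.26 in HEC-1A.

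The ligands and receptors had small differences, apart from BAMBI in HEC-1A. BMP4 (7979241) had 4.62 in Ishikawa siEfp and 4.90 in Ishikawa siControl, a difference of -0.28, and 6.47 in HEC-1A siEfp and 6.55 in HEC-1A siControl, a difference of -0.09. BMP7 (8067185), a ligand of the BMP5 to BMP8 branch, was dim on every array, with 3.82 in Ishikawa siEfp and 3.76 in Ishikawa siControl, and 3.77 in HEC-1A siEfp and 3.91 in HEC-1A siControl. Between 14.6% and 17.3% of genes were dimmer, and a change in BMP7 would be hard to see at such a signal. The type II receptor gene BMPR2 (8047538) had 10.30 in Ishikawa siEfp and 10.21 in Ishikawa siControl, and 9.56 in HEC-1A siEfp and 9.54 in HEC-1A siControl. Its differences were 0.09 and 0.03. BAMBI (7926875), itself a BMP and TGF-β target, was the exception in HEC-1A, with 6.57 in HEC-1A siEfp and 5.88 in HEC-1A siControl, a difference of 0.69 or 1.61-fold that ranked 113 from the highest. In Ishikawa it had 5.66 with siEfp and 5.77 with siControl, a difference of -0.11.

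**Figure D2:**
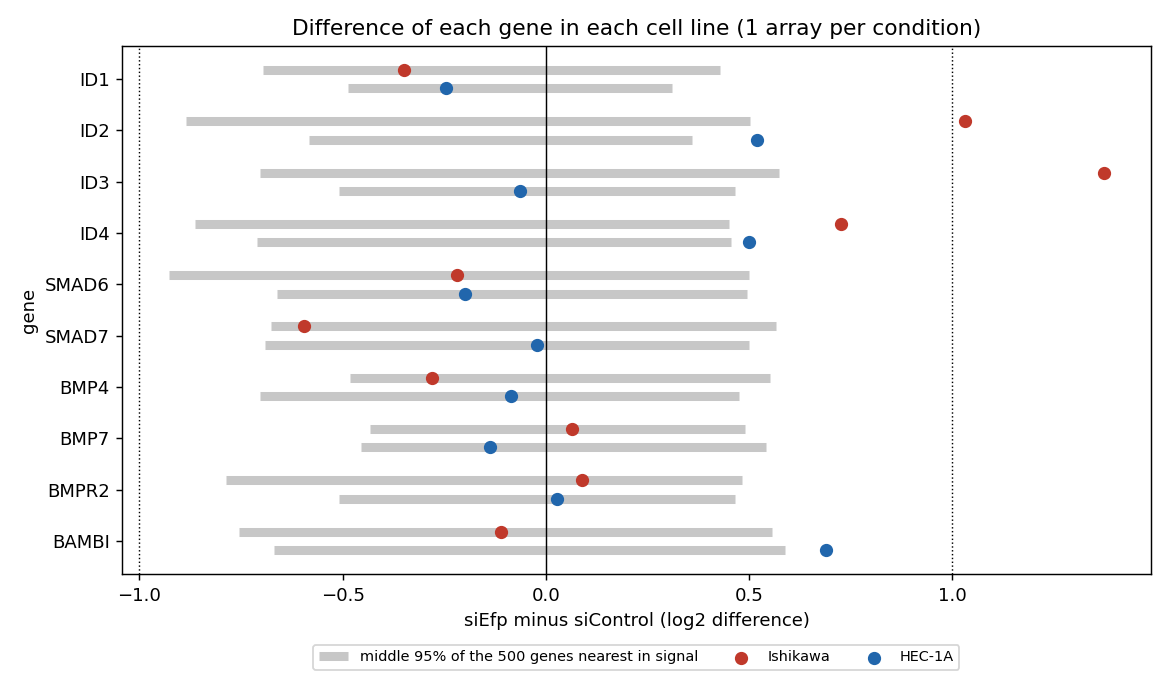
siEfp minus siControl difference (log2, horizontal axis) of each of the 10 genes, in Ishikawa (red) and in HEC-1A (blue), from 1 array per condition. Grey bars span the middle 95% of the differences of the 500 genes nearest in signal in that line, and dotted lines mark 2-fold. ID2 and ID3 pass 2-fold in Ishikawa at 1.03 and 1.37, and no gene does in HEC-1A, where BAMBI reaches 0.69.

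Counted by size, 2 of the 10 genes were at least 2-fold higher in siEfp-treated Ishikawa cells and 0 were 2-fold lower, where 0.136% of all genes were 2-fold higher and 0.804% lower. Since these values chose the genes, nothing is read from that count. At 1.5-fold the Ishikawa counts were 3 higher (ID2, ID3 and ID4) and 1 lower (SMAD7), against 1.49% higher and 3.72% lower of all genes. ID2 and ID3 had to pass this limit as well, so nothing is read from the higher count either. In HEC-1A, 0 of the 10 were 2-fold higher and 0 were 2-fold lower, beside a background of 0.103% and 0.271%. At 1.5-fold, 1 of the 10 (BAMBI) was higher in HEC-1A and 0 were lower, beside 1.34% and 2.04% of all genes. The median difference of the 10 genes was -0.02 in Ishikawa and -0.04 in HEC-1A, next to 0.01 over all genes in each line. The sign was the same in both lines for 7 of the 10 genes, and for 57.8% of all genes. The exceptions were ID3, BMP7 and BAMBI. Of the 274 genes at least 1.5-fold higher in Ishikawa, 83 were below 0 in HEC-1A, as ID3 was.

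The other genes of the pathway were listed by role, and 69 of 72 were measured. In Ishikawa, 39 were higher and 30 lower in siEfp, with a median of 0.04, beside 9616 higher and 8772 lower of all genes. In HEC-1A, 41 were higher and 28 lower, with a median of 0.05, beside 9594 higher and 8790 lower of all genes. In both lines 0 of the 69 passed 2-fold, a count near the background given above for a list of this size. At 1.5-fold, 1 of the 69 was higher and 1 lower in Ishikawa, beside 1.49% and 3.72% of all genes. In HEC-1A 1 was higher and 0 were lower, beside 1.34% and 2.04%. These counts are near or below those shares. The 3 genes were named after their values had been seen, and all were below the median signal. HEY1, a Notch and BMP target, had 6.17 in Ishikawa siEfp and 5.52 in Ishikawa siControl. SOSTDC1, a secreted BMP and Wnt antagonist, had 4.81 in Ishikawa siEfp and 5.40 in Ishikawa siControl. CHRDL1, a chordin-like BMP antagonist, had 4.38 in HEC-1A siEfp and 3.73 in HEC-1A siControl. Listed genes outside these 69 were not analysed here.

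By role, the remaining ligands were all below the median signal on average over the 4 arrays, with a list median of 0.08 in Ishikawa and -0.06 in HEC-1A over 12 genes. BMP8A, whose near-copy BMP8B makes its value uncertain, had a difference of -0.48 in Ishikawa. Among 9 other receptors and coreceptors the medians were 0.04 and 0.00, with the coreceptor RGMB at -0.32 in Ishikawa and the type II receptor ACVR2A at 0.04 in Ishikawa and 0.28 in HEC-1A. The type I receptor ACVR1 stood at 0.09 in Ishikawa and -0.06 in HEC-1A. In HEC-1A the coreceptor ENG was at -0.09 and ACVR2B at 0.10.

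The SMADs that carry the BMP signal did not share one direction. SMAD1 differed by 0.04 in Ishikawa and -0.08 in HEC-1A. SMAD5 was lower by a like amount in both, at -0.35 in Ishikawa and -0.33 in HEC-1A. SMAD9 differed by 0.16 in Ishikawa and 0.49 in HEC-1A, and the common partner SMAD4 by -0.03 and 0.22. The 11 intracellular brakes on SMADs had a median of -0.02 in Ishikawa and 0.11 in HEC-1A. The corepressor gene SKI was at 0.57 in Ishikawa, from 8.99 with siEfp and 8.42 with siControl, and at 0.25 in HEC-1A, while its relative SKIL was at -0.32 in both lines. PPM1A, a SMAD phosphatase, was at 0.34 in Ishikawa, and FKBP1A, which keeps type I receptors inactive, at -0.46 in Ishikawa and -0.24 in HEC-1A, where its brightest probe set alone gave 0.15. The ubiquitin ligase SMURF2 and the antiproliferative TOB1 were at 0.29 and 0.26 in HEC-1A.

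Of 16 extracellular antagonists and modulators, the median was 0.02 in Ishikawa and 0.05 in HEC-1A. TWSG1, which can both block and aid BMP binding, was at -0.50 in Ishikawa and -0.08 in HEC-1A. FSTL1, a secreted glycoprotein that can bind BMP4, was at -0.44 and -0.10. TLL1, a protease that cleaves the antagonist chordin, was at 0.49 in Ishikawa, and the activin and BMP binder FSTL3 at -0.02 in Ishikawa and 0.05 in HEC-1A. The 11 other BMP-responsive genes had medians of 0.13 and 0.15. Of the homeobox genes among them, MSX1 was at -0.37 in Ishikawa and 0.16 in HEC-1A and DLX5 at 0.34 in Ishikawa. The transcription factor GATA2 was at 0.16 in Ishikawa and 0.42 in HEC-1A, and the osteoblast factor gene SP7 at 0.46 in HEC-1A.

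The partners of the ID proteins were looked at last. The E protein genes differed by 0.12 (TCF3), -0.42 (TCF4) and 0.25 (TCF12) in Ishikawa and by 0.05, -0.19 and -0.01 in HEC-1A. Of the cell cycle inhibitor genes that E proteins can activate, CDKN1A differed by 0.10 in Ishikawa and 0.00 in HEC-1A. CDKN2A differed by -0.20 and 0.39, and CDKN2B by -0.53 and 0.05. These 6 genes had no common direction. In both lines 0 of the 6 passed 1.5-fold, which is near the share over all genes (1.49% higher and 3.72% lower in Ishikawa, 1.34% and 2.04% in HEC-1A).

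**Figure D3:**
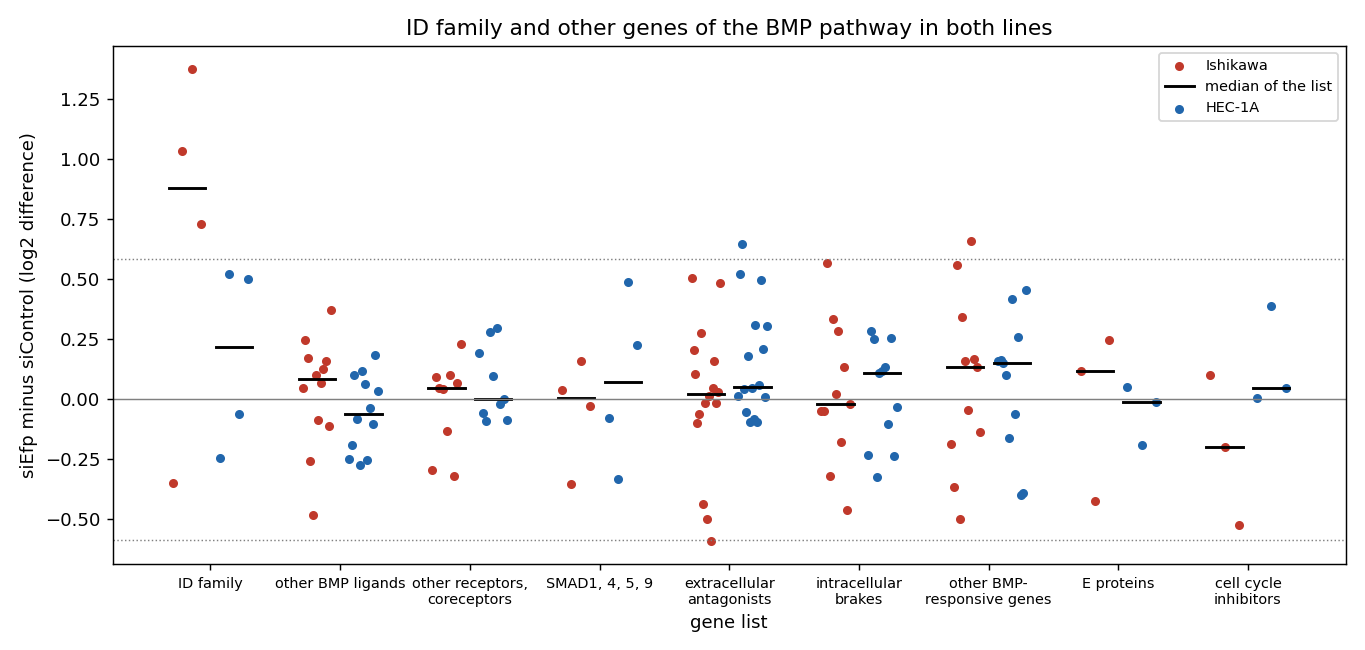
siEfp minus siControl difference (log2, vertical axis) of the 4 ID genes and of the 69 other listed genes by role, 1 point per gene, in Ishikawa (red) and HEC-1A (blue). Black bars are list medians and dotted lines mark 1.5-fold. The median of the ID family is 0.88 in Ishikawa and 0.22 in HEC-1A, and the other lists have medians between -0.20 and 0.15. The rule chose ID2 and ID3 for their Ishikawa values, so the family's Ishikawa median is raised by that choice. ID1 and ID4 stand at -0.35 and 0.73 there.

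The level of these genes was also compared between the cell lines. In limma over the 4 arrays, with the siRNA as a term, the level in Ishikawa was set against that in HEC-1A, with 2 arrays a line and p-values adjusted over 18417 genes. The Ishikawa signals of ID2 and ID3 are the ones that chose the genes, so their levels are given as a description with no test. Of the 8 other genes, 1 was higher in Ishikawa at an adjusted p under 0.05 and 3 were lower, where 17.0% of all genes were higher and 18.3% lower. The fit has 1 residual degree of freedom, which is the unequal siRNA response of the lines. To this limma adds a spread estimated over all genes, which counts as 5.54 degrees of freedom. The p-values therefore measure only the spread between these arrays, and mostly as pooled over genes.

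ID3 and ID2 had lower signals in Ishikawa. ID3 averaged 6.34 in Ishikawa and 9.55 in HEC-1A, a difference of -3.21. The gap was -2.49 between the siEfp arrays and -3.92 between the siControl arrays, and choosing a gene for a large siEfp difference favours a low Ishikawa siControl signal. Ishikawa siEfp minus HEC-1A siControl was -2.55. ID2 averaged 8.04 in Ishikawa and 10.47 in HEC-1A, a difference of -2.43.

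BMP4 was lower in Ishikawa, with 4.76 there and 6.51 in HEC-1A, a difference of -1.75 (-2.05 to -1.45, adjusted p = 0.000119, limma). Its call held in every setting that included it, but the setting without genes below the median signal did not. BMP4 was dim in Ishikawa, where 26.1% of genes were dimmer with siEfp and 30.8% with siControl. ID1 averaged 10.89 in Ishikawa and 11.67 in HEC-1A (difference -0.78, -1.08 to -0.49, adjusted p = 0.00319, limma). SMAD7 averaged 6.30 in Ishikawa and 6.98 in HEC-1A (difference -0.68, -1.08 to -0.29, adjusted p = 0.0185, limma). Both ID1 and SMAD7 lost their call without the Ishikawa siEfp array (adjusted p = 0.0806 and 0.154), without the HEC-1A siEfp array (0.0605 and 0.198) and without the HEC-1A siControl array (0.120 and 0.210). SMAD7 also lost it without the siRNA term (0.0562).

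BMPR2 was the gene that was higher in Ishikawa, with 10.26 there and 9.55 in HEC-1A, a difference of 0.70 (0.41 to 0.99, adjusted p = 0.00477, limma) or 1.63-fold. Its call was lost without the HEC-1A siEfp array (adjusted p = 0.0586) and without the HEC-1A siControl array (0.0636). The remaining genes did not pass in this fit. SMAD6 differed by 0.35 (0.06 to 0.64, adjusted p = 0.0631), ID4 by -0.23 (-0.53 to 0.08, adjusted p = 0.238), BAMBI by -0.50 (-0.98 to -0.03, adjusted p = 0.0963) and BMP7 by -0.05 (-0.35 to 0.25, adjusted p = 0.815). SMAD6 passed in 2 of 9 alternatives, without genes below the median signal (0.0258) and after a second quantile normalization (0.0416), and BAMBI in 1 of 8, without the HEC-1A siControl array (0.0400). The interval for ID4 leaves room for a difference of -0.53, so that equal levels are not shown.

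**Figure D4:**
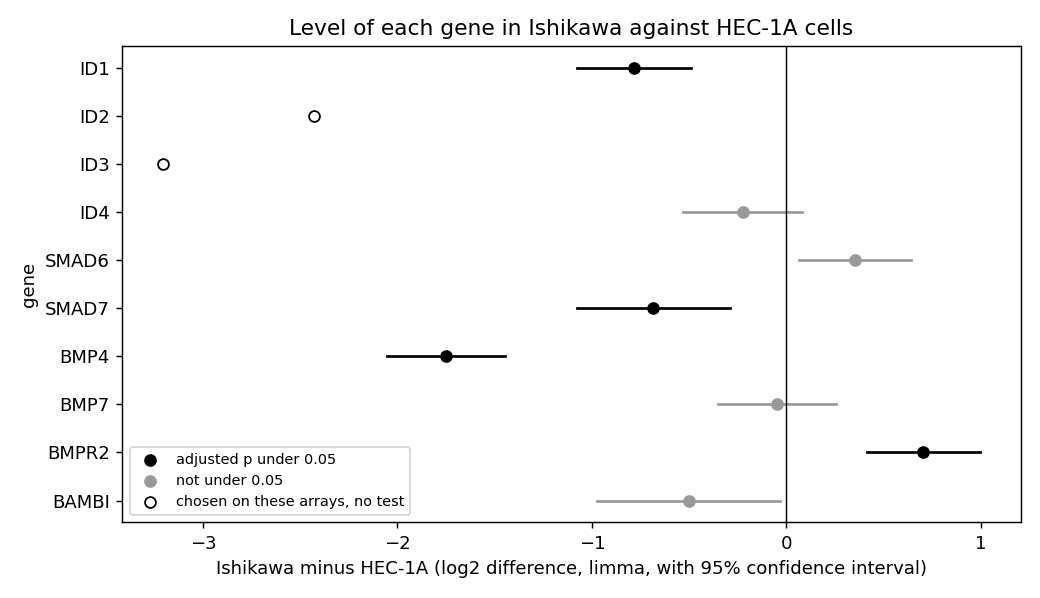
Ishikawa minus HEC-1A level (log2, horizontal axis) of each of the 10 genes, as the limma estimate over 2 arrays a line with its 95% confidence interval. Black genes have an adjusted p under 0.05 and grey genes do not, and the open points of ID2 and ID3 are values with no test. ID3 and ID2 lie furthest to the left, at -3.21 and -2.43, and BMPR2 alone passes to the right, at 0.70.

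Among the 69 other genes, 15 were higher and 15 lower in Ishikawa, read against the same 17.0% and 18.3%. Of the 16 extracellular antagonists and modulators 6 were higher and 1 was lower, with FSTL1 at 3.50 (adjusted p = 1.13e-05, limma) and TLL1 at 3.26 (adjusted p = 1.12e-05, limma). Of the 11 intracellular brakes 1 was higher and 5 were lower. Of the signal-carrying SMADs, 1 was higher and 2 lower, including SMAD9 at -1.05 (adjusted p = 0.00148, limma). Among the BMP-responsive genes, 2 were higher and 2 lower of 11, with DLX5 at 2.93 (adjusted p = 3.29e-05, limma) and GATA2 at -1.43 (adjusted p = 0.000326, limma). Of the 3 E protein genes 1 was higher and 0 were lower, with TCF4 at 1.14 (adjusted p = 0.000824), TCF12 at 0.35 (adjusted p = 0.0834) and TCF3 at 0.08 (adjusted p = 0.668, limma). CDH1, EPCAM, KRT8 and KRT19 also had lower signals on both HEC-1A arrays than on both Ishikawa arrays, while KRT18 overlapped. The part of these markers in the line differences was not tested.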

How the data were processed

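Gene expression was measured with 4 arrays, 1 per cell line and siRNA. For each probe set the authors deposited a log2 signal, which Affymetrix Expression Console had computed by RMA (background correction, quantile normalization, probe summary) per the submitters' processing notes. Tool versions and a genome build were not given in the sources used here. The study's text names an exon array, while the probe set numbers are those of a gene-level array. RMA takes out any shift that all genes share, and it compresses differences of dim genes.

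Of 33297 probe sets, 19460 with exactly 1 gene symbol in the platform annotation were averaged into 18417 genes. Probe sets with several symbols (1754) or none (12083) were left out. Within a line, siControl was subtracted from siEfp, with no test, and genes were counted at 2-fold and 1.5-fold. Levels between lines were tested with limma 3.58.1 in R 4.3.3 (lmFit and eBayes, siRNA and cell line as terms, two-sided, Benjamini-Hochberg over all genes, adjusted p under 0.05). The code was first run on simulated data, to check that it returned known line differences. The simulated spread came from the fit itself and held no siRNA effect, so that run does not test the p-values. The rest was done in Python 3.11.15 (pandas 2.3.3, numpy 2.4.6, matplotlib 3.10.9, scipy 1.17.1). The number of arrays limits the precision.

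The genes, lists and tests were chosen with earlier results of these data known. Named genes are the 10 genes, TRIM25, lists of up to 4 genes in full, and the 2 highest and 2 lowest genes of each list in each line among those at the median signal or above on 1 array. Promoter windows came from RefSeq (GRCh38.p14). The array values name no build, so no coordinates were joined to them. Alternatives were median centring, a second quantile normalization, the brightest probe set of a gene, a 1.5-fold threshold, no dim genes and, for limma, no siRNA term, an intensity trend, an adjusted p under 0.1 and each array left out.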

Additional observations from a re-analysis of the deposited data

Results flagged for a closer look

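In 3 of the 10 genes the siEfp array was on opposite sides of siControl in the 2 lines. Over all genes, the sign was the same in both lines for 57.8%. With 1 array per condition the difference between the lines was not tested. ID3 differed by 1.37 in Ishikawa and -0.06 in HEC-1A, so that its response was 1.44 higher in Ishikawa on the log2 scale. The rule chose ID3 for its Ishikawa value, and that choice favours such a gap. BAMBI differed by -0.11 in Ishikawa and 0.69 in HEC-1A, a response in Ishikawa minus that in HEC-1A of -0.80. BMP7 differed by 0.06 in Ishikawa and -0.14 in HEC-1A, a gap of 0.20 at a dim signal. ID3 stood at 5.66 in Ishikawa siControl and 9.58 in HEC-1A siControl, and the part of this level in the result was not tested.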

How the results depend on the processing

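The siEfp differences of the 10 genes moved by at most 0.0778 on the log2 scale under median centring, a second quantile normalization or the brightest probe set, and each of the 10 has 1 probe set. At 1.5-fold instead of 2-fold, 1 of the 10 was lower in Ishikawa (0 at 2-fold) and 1 was higher in HEC-1A (0 at 2-fold). With its brightest probe set FKBP1A had -0.34 in Ishikawa and, with the sign turned, 0.15 in HEC-1A. Counts of the 10 genes between the lines include ID2 and ID3, whose Ishikawa signals chose the genes. For ID2 and ID3 these counts are a description and no test. Of the 8 other genes, 1 was higher and 3 were lower in Ishikawa at an adjusted p under 0.05 in limma. With ID2 and ID3 counted in, 6 of the 10 genes were under that limit, and 7 were after a second quantile normalization. Leaving out each array in turn kept the sign of the line difference in ID1, SMAD7, BMP4 and BMPR2. BMP4 ranged from -1.89 to -1.61, ID1 from -0.96 to -0.61, SMAD7 from -0.98 to -0.39 and BMPR2 from 0.66 to 0.75. The calls of ID1, SMAD7 and BMPR2 were lost in several of these fits, as given above. Over all genes, 3124 were higher in Ishikawa and 3362 lower. Without the HEC-1A siEfp array these counts were 1443 and 1184, without HEC-1A siControl 1417 and 1267, without Ishikawa siEfp 1951 and 1629, and without Ishikawa siControl 1952 and 1971. These fits hold fewer arrays and no siRNA term, and the line with 1 array is assumed to vary like the other. With 1 array per condition no error can be set on any siEfp difference.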
